A study of Mus musculus with 12 samples.

Results

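Integrin and laminin genes were described in mouse intestinal muscle cells cultured with or without a gelatin scaffold. All genes of the count table whose mouse symbol names an integrin alpha chain, an integrin beta chain or a laminin chain were taken, which gave 37 of 52550 genes. They comprised 18 integrin alpha, 8 integrin beta, 5 laminin alpha, 3 laminin beta and 3 laminin gamma genes. Of these, 34 passed the low-count filter and were tested. Itgad, Itgae and Itgb7, chains known from leukocytes, did not pass, and none of the 3 exceeded 0.359 CPM (counts scaled by library size) in any library.

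Integrins are receptors of the cell surface. Each joins an alpha and a beta chain, binds matrix or another cell on the outside and is tied to actin inside through talin and other adapters. The alpha chain largely sets the ligand: Itga1, Itga2, Itga10 and Itga11 bind collagens, Itga3, Itga6 and Itga7 bind laminins, and Itga5, Itga8 and Itgav bind proteins with an RGD motif such as fibronectin. Laminins are secreted trimers of an alpha, a beta and a gamma chain that polymerise into basement membranes, which wrap each smooth muscle cell of the gut wall and line its vessels. Gelatin, the material of the scaffold, is denatured collagen.

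RNA was sequenced from 12 libraries in 4 groups of 3, which the study's text calls biologically independent. All samples had the WT genotype. In the M scaffold group, primary cells isolated from intestinal muscle layers were held for 28 days in M (differentiation) medium on an electrospun gelatin scaffold. In the M plate group they had the same medium on a well plate. M medium was Advanced DMEM/F-12 with N2, B27 without vitamin A, N-acetylcysteine, HEPES and GlutaMAX. It also held 100 ng/mL Noggin, which blocks BMP signals, 1 µg/mL R-spondin1, which raises Wnt signals, and 10 µM Y27632, a kinase inhibitor. In the P plate group the cells were held for 28 days on a well plate in P (proliferation) medium, which was DMEM with 10% FBS. Strips of intestinal muscle, called native tissue by the labels, were the positive control, although their labels also carry day 28 and name isolated cells as the source. All media contained an antibiotic-antimycotic mix. The age and strain of the animals are not stated in the labels.

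The cultures are mixed primary cells, so fewer cells of a type and less RNA per cell cannot be told apart in any of the values below. Counts assigned to genes ranged from 21396485 to 116643512 per library. The summed level of 10 smooth muscle markers was 3762 to 11324 CPM in M scaffold, 3148 to 5531 in M plate, 5347 to 11048 in P plate and 35101 to 36794 in strips, with all 10 detected in each group. A pair of libraries stood apart from their groups. In P plate replicate 1, 10 macrophage markers summed to 22800 CPM, while the other P plate libraries had 4450 and 2490.1 CPM. The sum of 6 lymphatic endothelial markers was 291 CPM in M scaffold replicate 3, against 1884 and 1361 in the other M scaffold libraries. Member values that moved by over 1.5 times without 1 of these libraries are given both ways.

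To compare genes with each other, CPM was divided by the length of all exons joined, in kb. On this scale Itgb1, the beta chain shared by most matrix-binding integrins, was the most abundant of the 37 genes in every group. It averaged 397, 328 and 456 CPM per kb in M scaffold, M plate and P plate, and 317 in strips. Itgb1 made up 78.7 ± 2.9% (SD, n = 3), 74.4 ± 1.7% and 72.4 ± 5.9% of the summed beta chain level in M scaffold, M plate and P plate, and 82.7 ± 0.45% in strips. The beta chain next in level differed between cultures and muscle. By group mean, though not in every library, it was Itgb5, a partner of Itgav, in the cultures. Itgb5 held 16.4 ± 1.8%, 18.2 ± 0.99% and 18.3 ± 5.8% in M scaffold, M plate and P plate, against 4.86 ± 0.58% in strips. Itgb3, another chain that pairs with Itgav, held 0.507 ± 0.21%, 0.646 ± 0.12% and 0.643 ± 0.18% in M scaffold, M plate and P plate, against 9.80 ± 0.65% in strips, where it came next after Itgb1.

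Among integrin alpha chains, those of the RGD receptors (Itga5, Itga8, Itgav and Itga2b) had the largest mean share of the summed level per kb in all 4 groups. It was 44.3 ± 3.0%, 36.3 ± 2.8% and 53.1 ± 12.7% in M scaffold, M plate and P plate, and 44.0 ± 3.6% in strips (SD, n = 3). Laminin receptor chains (Itga3, Itga6 and Itga7) followed with 28.2 ± 3.6%, 32.3 ± 0.78%, 29.6 ± 16.9% and 25.9 ± 1.7% in the same order of groups. The collagen receptor chains held 13.3 ± 3.7%, 15.4 ± 1.7%, 9.87 ± 0.74% and 10.5 ± 0.19%. Itga4 and Itga9, which bind VCAM1, fibronectin or tenascin, stood at 11.3 ± 5.3%, 11.5 ± 1.7% and 2.09 ± 0.99% in M scaffold, M plate and P plate, and at 19.3 ± 3.3% in strips. Leukocyte chains held 2.84 ± 1.4%, 4.55 ± 2.7% and 5.38 ± 5.2% in the cultures and 0.266 ± 0.094% in strips. With the longest coding transcript as the length, an alternative chosen after seeing the data, laminin receptor chains led in M plate, at 35.7% against 34.2% for the RGD receptors.

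Laminin chains of the general trimers dominated. Lama4, Lama5, Lamb1, Lamb2 and Lamc1 were the 5 most abundant laminin genes per kb in M scaffold, M plate and strips. In P plate Lamc3, at 10.4 CPM per kb, stood above Lama4, at 9.58. Lama5 held 46.7 ± 3.3%, 47.2 ± 0.73% and 74.4 ± 21.1% of the laminin alpha level in M scaffold, M plate and P plate, and 65.6 ± 1.1% in strips. Lama4, an alpha chain of vessels and mesenchymal cells, held 43.0 ± 4.5%, 44.8 ± 1.5%, 15.7 ± 12.4% and 27.3 ± 0.48%. The order of these chains in the M cultures depends on the length used: with the longest coding transcript in place of all exons, an alternative chosen after seeing the data, Lama4 held 59.2% in M scaffold and 61.0% in M plate, and Lama5 held 32.3% and 32.2%.

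**Figure D1:**
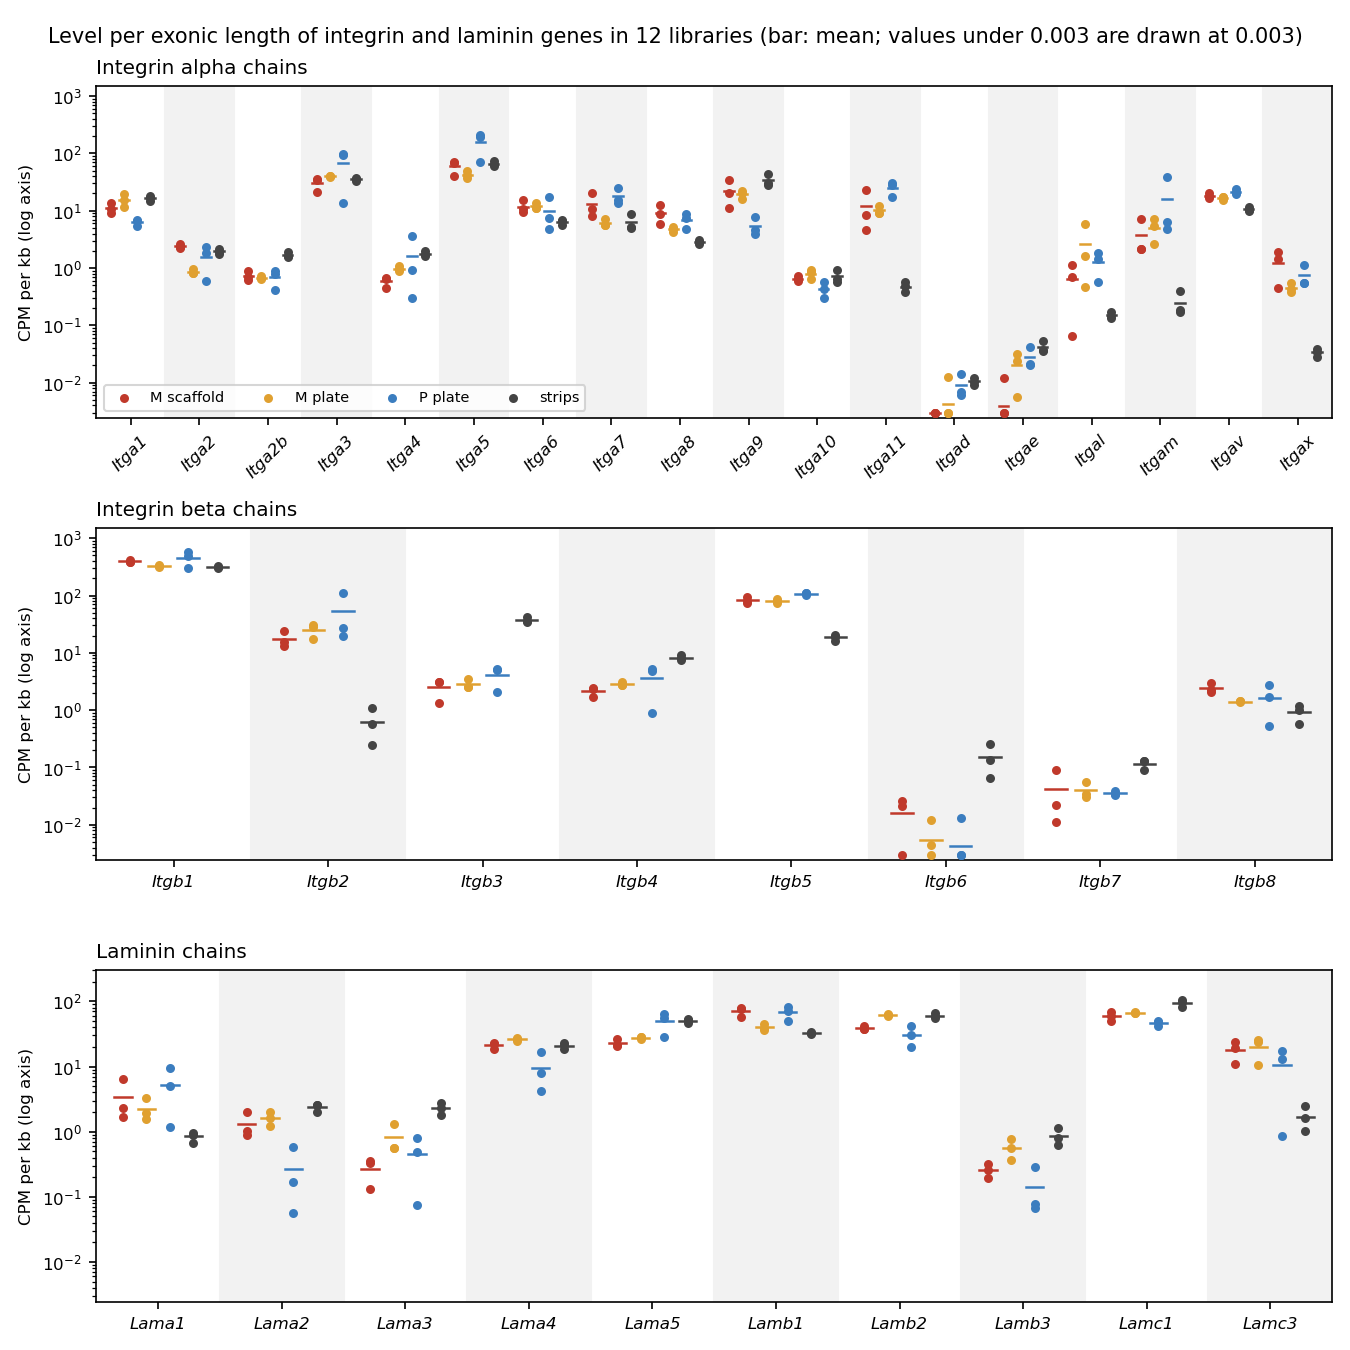
Level of the integrin and laminin genes shown per kb of exon in the 12 libraries, on a log axis, with points for libraries and bars for means of M scaffold, M plate, P plate and strips. Itgb1 is the highest gene in every group, at 397, 328, 456 and 317 CPM per kb, and Itgb3 lies at 2.54, 2.85 and 4.13 CPM per kb in the cultures, against 37.6 in strips.

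M scaffold was set against M plate to see what a 3D gelatin support changed with the medium held constant. One member was called: Lamb1, the most widely used laminin beta chain, was higher on the scaffold. This is 2.94% of the 34 tested members, beside 1.53% of all 17700 genes tested that were called higher. None was called lower, where the background was 1.64%. At an unadjusted p under 0.05, 5 members were higher and 3 lower, beside 11.5% and 9.95% of all genes. DESeq2 called 5 and 1 members, beside 6.47% and 4.93% of all genes, and limma-voom called 2 and 0, beside 2.59% and 3.08%. The median log2 fold change was -0.10 over the members and 0.01 over all genes.

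Lamb1 (ENSMUSG00000002900, chr12:31265234-31329644, plus strand, GRCm38) had 575, 783 and 749.8 CPM in M scaffold, against 381, 359.8 and 445 CPM in M plate. Every M scaffold library was above every M plate library. The log2 fold change was 0.83 ± 0.19 (SE) with an adjusted p of 0.0473 in edgeR's quasi-likelihood test. Lamb1 in P plate, at 816, 491 and 704 CPM, overlapped M scaffold, while strips were lower at 313, 319 and 340.1 CPM. The Lamb1 call was lost without M plate replicate 1, 2 or 3 (adjusted p 0.123, 0.189 and 0.111). It was also lost without M scaffold replicate 2 or 3 (0.0910 and 0.109), and held without M scaffold replicate 1 (0.0468). Fewer of all genes were called higher too: 0.473%, 0.0385% and 0.132% without M plate replicate 1, 2 and 3. Without M scaffold replicate 1, 2 and 3 the share was 0.963%, 1.22% and 0.567%, against 1.53% with all libraries. The log2 fold change ranged from 0.77 to 0.97 over those 6 fits.

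Lamb2, the beta chain known from muscle and synaptic basement membranes, was described beside it after its values were seen. Lamb2 (ENSMUSG00000052911, chr9:108479736-108490530, plus strand) had 251, 225 and 226 CPM in M scaffold, against 382, 388 and 361 CPM in M plate. The groups did not overlap, in the direction opposite to Lamb1. The log2 fold change of -0.69 ± 0.21 did not pass the test (adjusted p 0.0965). Per kb, the ratio of Lamb1 to Lamb2 was 1.41, 2.13 and 2.03 in M scaffold, against 0.611, 0.569 and 0.755 in M plate. It was 4.07, 1.19 and 2.36 in P plate and 0.574, 0.488 and 0.575 in strips. Whether the ratio in M plate lay below 1 depended on the length: with the longest coding transcripts, an alternative chosen after seeing the data, it averaged 2.95 ± 0.62 in M scaffold, 1.02 ± 0.15 in M plate, 4.03 ± 2.30 in P plate and 0.866 ± 0.079 in strips (SD, n = 3).

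The bases just before the annotated starts of this pair of genes are shown because the genes stood apart in opposite directions. They come from RefSeq (GRCm38.p6), run 5′ to 3′ on the plus strand and end at the base before the GENCODE start, with the GC box GGGCGG or its reverse complement in capitals. Lamb1 is shown at chr12:31265043-31265233 and Lamb2 at chr9:108479612-108479735.
Lamb1: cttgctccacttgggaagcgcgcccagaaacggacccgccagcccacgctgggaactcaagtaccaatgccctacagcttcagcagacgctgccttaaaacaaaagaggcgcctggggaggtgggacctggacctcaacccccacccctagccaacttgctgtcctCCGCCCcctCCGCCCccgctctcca
Lamb2: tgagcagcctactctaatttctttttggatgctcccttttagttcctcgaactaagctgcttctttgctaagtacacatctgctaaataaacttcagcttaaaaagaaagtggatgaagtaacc
The Lamb1 stretch held 2 GC boxes and 63.9% G or C, and the shorter Lamb2 stretch held none and 37.9% G or C. Over windows of 250 bases, 32.7% of 32851 RefSeq promoters held a GC box on either strand, and so did 8 of the 23 members found in the RefSeq table. The TGANTCA motif was in 6.75% of all promoters and 1 of 23 members, and GGAATG in 12.6% and 3 of 23. The CArG box was in 1.47% and 2 of 23. The shares of all promoters count each window, while a member counts if any of its windows held the motif, so the units differ. These are matches of letters, and no binding was measured.

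**Figure D2:**
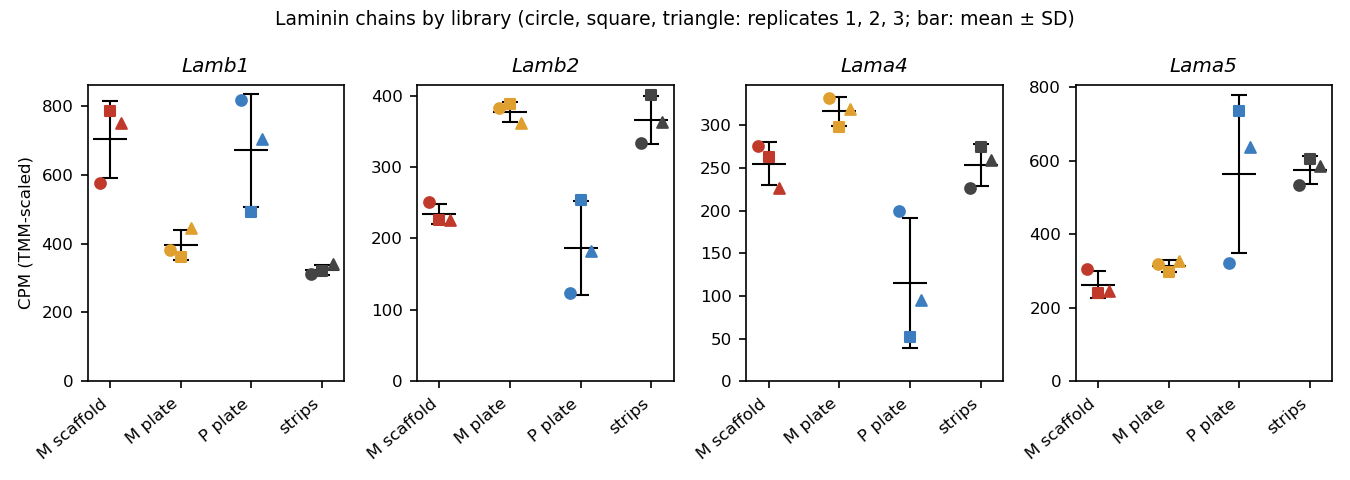
CPM of Lamb1, Lamb2, Lama4 and Lama5 in each library of M scaffold, M plate, P plate and strips, with the mean ± SD of 3 libraries. Lamb1 was higher in M scaffold (575 to 783 CPM) than in M plate (359.8 to 445 CPM), while Lamb2 lay at 225 to 251 CPM in M scaffold and 361 to 388 CPM in M plate.

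Same-numbered M scaffold and M plate libraries deviated together from their group means, so a fit with the replicate number as a block is given beside the fit without it. Within the 6 libraries, the block gave 3 members higher, Itga2 (log2 fold change 1.50), Itgb8 (0.78) and Lamb1 (0.83), and 3 lower, Itga1 (-0.46), Itgal (-1.99) and Lamb2 (-0.68). That fit called 4.81% of all genes higher and 5.69% lower. Lamb1 had an adjusted p of 0.0344 there and Lamb2 one of 0.0259. With the block over all 12 libraries no member was called, beside 1.25% of all genes higher and 0.955% lower, and Lamb1 had an adjusted p of 0.0667.

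Itga2, a collagen receptor chain, had 15.9, 16.8 and 18.6 CPM in M scaffold, against 5.79, 6.73 and 5.76 CPM in M plate. These ranges lay well apart, and the log2 fold change was 1.49 ± 0.37, but the adjusted p was 0.0586. It was under 0.05 in limma-voom (0.0403), in DESeq2 (0.00359), without the filter (0.0465), in the 6 libraries alone (0.00954) and with the block in them (0.0185). It was 0.0834 with the block in 12 libraries and 0.0903 to 0.183 on leaving out each library. P plate, at 16.5, 4.18 and 12.8 CPM, spanned both M groups, and strips had 12.3, 13.7 and 15.6 CPM. The gene beside it on chromosome 13, Itga1, lies 21.0 kb away on the same strand and also encodes a collagen receptor chain. It had 253, 203 and 168 CPM in M scaffold, against 371, 283 and 216 CPM in M plate, with a log2 fold change of -0.48 ± 0.21 (adjusted p 0.220) and overlapping groups.

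None of the other tested members passed in this comparison. Among the collagen receptor chains the log2 fold change was -0.30 for Itga10 and 0.26 for Itga11. Itga11 ranged from 24 to 119 CPM over the M scaffold libraries, and the sign of its difference turned to -0.61 without replicate 3. The laminin receptor chains gave -0.38 for Itga3, -0.02 for Itga6 and 1.10 for Itga7. Itga7, the laminin receptor of muscle, had 64.4, 87.7 and 166 CPM in M scaffold, against 45.7, 45.6 and 57.0 CPM in M plate, and did not overlap between the groups (adjusted p 0.116). Without M scaffold replicate 3 the difference was 0.62.

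Of the RGD receptor chains, Itga8, which is known from smooth muscle and mesenchyme, had 43.9, 92.1 and 63.6 CPM in M scaffold, against 35.6, 37.7 and 31.8 CPM in M plate. Its groups did not overlap, with a log2 fold change of 0.92 ± 0.26 (adjusted p 0.0774, and 0.0445 without M scaffold replicate 1). The others gave 0.49 for Itga5, 0.13 for Itgav and 0.13 for Itga2b. Itga4 gave -0.74 and Itga9 gave 0.17. The leukocyte chains gave -2.06 for Itgal, -0.40 for Itgam and 1.46 for Itgax. Itgal had 0.430, 7.36 and 4.64 CPM in M scaffold, against 3.04, 38.3 and 10.5 CPM in M plate. The groups overlapped, and the difference was -0.70 without M plate replicate 2 and -2.70 without M scaffold replicate 2. Itgam gave -1.23 without M scaffold replicate 3. Itgax, known from dendritic cells and macrophages, had 9.0, 2.14 and 6.79 CPM in M scaffold, against 2.03, 1.80 and 2.66 CPM in M plate (adjusted p 0.110, and 0.0354 without M scaffold replicate 2). The beta chains gave 0.28 for Itgb1, -0.53 for Itgb2, -0.16 for Itgb3, -0.41 for Itgb4, 0.04 for Itgb5 and 0.79 for Itgb8, and Itgb6 had too few counts for a fold change.

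Among laminin alpha chains the log2 fold change was 0.62 for Lama1, -0.30 for Lama2, -1.62 for Lama3, -0.31 for Lama4 and -0.26 for Lama5. Lama3, the alpha chain of epithelial laminin, had 3.50, 3.82 and 1.40 CPM in M scaffold, against 6.10, 6.12 and 14.2 CPM in M plate. The groups did not overlap and the adjusted p was 0.208. Lamb3, its epithelial partner, gave -1.11, while the gamma chains Lamc1 and Lamc3 gave -0.14 and -0.15. Groups without overlap were common among uncalled members: Itga3, Itga4, Itgb1, Itgb4, Itgb8, Lama4 and Lamb3 did not overlap either. The share of all genes without overlap was not counted, so a lack of overlap is a description only.

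**Figure D3:**
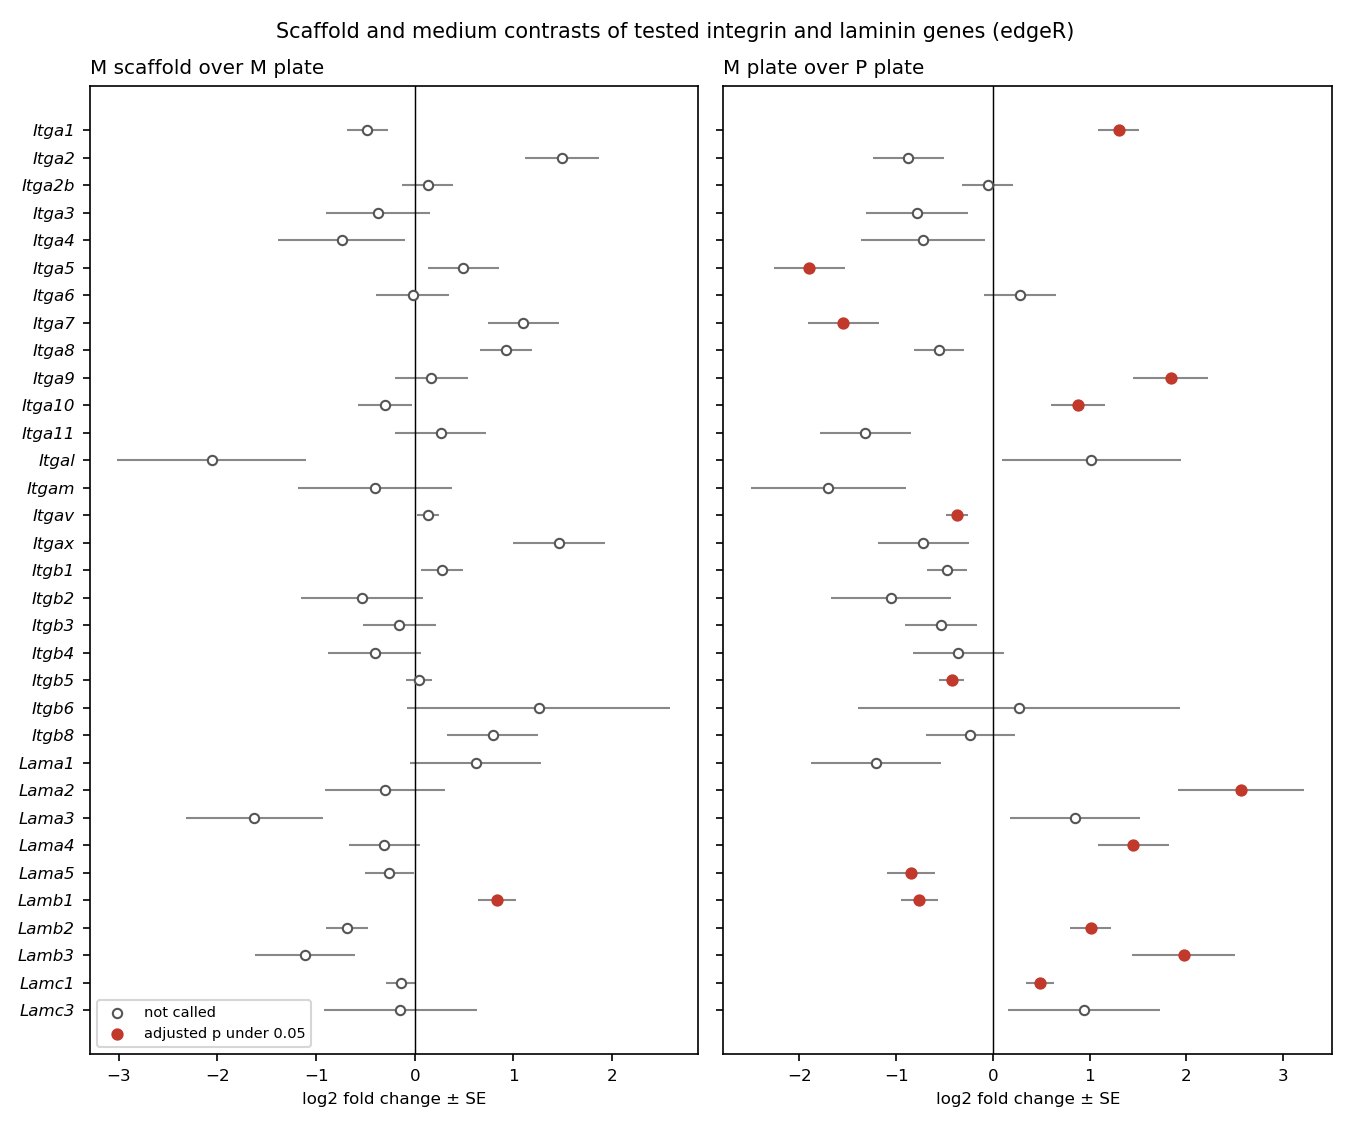
Log2 fold change ± SE of the tested genes shown for M scaffold over M plate on the left and M plate over P plate on the right, with filled points for genes with an adjusted p under 0.05. On the left Lamb1 at 0.83 is the single filled point, and on the right 14 points are filled, 8 to the right of 0 and 6 to the left.

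The partners of these genes were counted from lists, chosen with earlier results of these data known. Over all genes, 1.53% were called higher on the scaffold and 1.64% lower. The shares of all genes were 11.5% and 9.95% at an unadjusted p under 0.05. They were 6.47% and 4.93% in DESeq2, and 2.59% and 3.08% in limma-voom. Of 23 basement membrane partners, 1 was called higher on the scaffold and none lower (2 and 3 at an unadjusted p under 0.05, 2 and 3 in DESeq2, 1 and 0 in limma-voom). It was Egflam, pikachurin, a ligand of dystroglycan, with 49.2 ± 19.4 CPM in M scaffold and 10.9 ± 1.5 CPM in M plate (SD, n = 3), a log2 fold change of 2.17 ± 0.33 and an adjusted p of 0.0141. Its call was lost without M plate replicate 2 or 3 (0.0872 and 0.0615). Of 26 tested integrin ligands among 31, 1 was higher and 1 lower. Mfge8, an RGD ligand of Itgav integrins, had 457 ± 45 CPM in M scaffold and 226 ± 14 CPM in M plate (1.01 ± 0.13, adjusted p 0.00896, and 0.0533 without M plate replicate 2). Ccn2, a matricellular integrin ligand, fell to 130 ± 51 CPM in M scaffold, against 371 ± 60 CPM in M plate (-1.51 ± 0.34, adjusted p 0.0459). Its call was lost on leaving out any single library, with adjusted p from 0.0686 to 0.139, and with the block in 12 libraries (0.0542).

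Inside the cell, none of 34 adapter and adhesion complex genes was called by edgeR (4 higher and 5 lower at an unadjusted p under 0.05, 1 and 3 in DESeq2, none in limma-voom). The lowest p values belonged to Lims2, an ILK-binding adapter, at 0.92 ± 0.25 (adjusted p 0.0725), and Tln2, a talin, at -0.46 ± 0.13 (0.0742). Lims2 was called in DESeq2 (0.0113) and with the block in 12 or 6 libraries (0.0401 and 0.0239). Tln2 was called in DESeq2 (0.0235) and with the block in 6 libraries (0.0407). On leaving out each library, adjusted p was 0.0336 to 0.256 for Lims2 and 0.0849 to 0.221 for Tln2. With the block in 6 libraries, 2 of the 34 were higher and 3 lower, beside 4.81% and 5.69% of all genes. None of 13 other laminin receptors was called either (4 and 0 at an unadjusted p under 0.05, 3 and 0 in DESeq2, 2 and 0 in limma-voom). Gpc1, a glypican, stood at 1.38 ± 0.33 (adjusted p 0.0506). It was called with RLE or upper quartile scaling (0.0499 and 0.0486) and without the filter (0.0382). DESeq2 (0.00194), limma-voom (0.0440) and the block in 12 or 6 libraries (0.0269 and 0.0293) also called it. On leaving out each library its adjusted p was 0.0407 to 0.197. Median log2 fold changes were 0.05 for the basement membrane partners, 0.13 for the ligands, -0.07 for the adapters and 0.32 for the other laminin receptors, beside 0.01 over all genes. Markers of other cells also differed on the scaffold, and all markers of the lists given next were detected in both groups unless stated. The summed level of 7 enteric glia and Schwann markers was 282 to 629 CPM in M scaffold, against 137 to 178 CPM in M plate, and 4 of them were called higher. Sums were also higher without overlap for 5 pericyte markers (588 to 1019 CPM in M scaffold, against 289 to 397 CPM in M plate) and 7 enteric neuron markers (351 to 536 CPM in M scaffold, against 116 to 222 CPM in M plate). So they were for 3 markers of interstitial cells of Cajal (78.4 to 143 CPM in M scaffold, against 54.4 to 69.3 CPM in M plate). In each of the pericyte, neuron and Cajal cell lists 1 marker was called higher. The 7 fibroblast markers summed to 16660.1 to 23818 CPM in M scaffold, against 14086 to 15905 CPM in M plate, with none called.

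Other sums were lower on the scaffold without overlap. The lymphatic endothelial sum was 291 to 1884 CPM in M scaffold, against 3157 to 4172 CPM in M plate, with 1 of 6 markers called lower. The 10 endothelial markers summed to 357 to 1686 CPM in M scaffold, against 1848 to 2237 CPM in M plate, with none called. The 8 lymphocyte markers, of which 3 were tested and 1 called lower, summed to 14.2 to 17.7 CPM in M scaffold, against 48.4 to 89.5 CPM in M plate. Of these 8, 7 were detected in M scaffold and 5 in M plate, with Cd8a at 0 in both groups and Cd3g at 0 in M plate. Sums were 2041 to 4396 CPM in M scaffold, against 4410.4 to 5161 CPM in M plate, for 10 macrophage markers, and 986 to 1584 CPM in M scaffold, against 1932 to 2336 CPM in M plate, for 5 mesothelial markers, with none of either called. The smooth muscle, epithelial and platelet sums overlapped, with no marker called. The part of these cells in the member differences was not tested.

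M plate was set against P plate to see the effect of the medium on cells in wells. In M medium 8 members were called higher and 6 lower. That is 23.5% and 17.6% of the 34 tested, beside 14.3% and 10.6% of all genes. Laminin genes made up 5 of the 8 rises: Lama2, Lama4, Lamb2, Lamb3 and Lamc1. The other 3 were the integrin alpha chains Itga1, Itga9 and Itga10. Integrin chains made up 4 of the 6 falls, Itga5, Itga7, Itgav and Itgb5, and the laminin chains Lama5 and Lamb1 were the others. The median log2 fold change was -0.36 over the members and -0.0044 over all genes (-0.47 over 23 integrin and 0.85 over 11 laminin genes).

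Lama2, the laminin alpha chain of muscle (ENSMUSG00000019899, chr10:26980036-27619758, minus strand), had 32.7, 20.1 and 26.3 CPM in M plate, against 9.55, 0.922 and 2.77 CPM in P plate. The groups did not overlap, and the log2 fold change was 2.57 ± 0.65 (adjusted p 0.0171), or 3.84 without P plate replicate 1. Lamb3, an epithelial laminin chain, was low throughout, at 5.04, 3.76 and 2.39 CPM in M plate, against 0.520, 1.88 and 0.446 CPM in P plate (1.97 ± 0.53, adjusted p 0.0220). Without P plate replicate 2 the fold change of Lamb3 was 2.93. Itga9, an alpha chain prominent in lymphatic vessels and smooth muscle, had 154, 172 and 124 CPM in M plate, against 59.2, 30.7 and 35.9 CPM in P plate (1.84 ± 0.38, adjusted p 0.00650). All 3 M plate libraries lay above all 3 P plate libraries for each of these genes. Lama4 (1.45 ± 0.37, and 2.11 without P plate replicate 1), Itga1 (1.30 ± 0.21), Lamb2 (1.01 ± 0.21), Itga10 (0.88 ± 0.28) and Lamc1 (0.49 ± 0.15) were the other rises.

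In the other direction, Itga5, the fibronectin receptor chain (ENSMUSG00000000555, chr15:103344286-103366763, minus strand), had 204, 185 and 240.5 CPM in M plate, against 953, 344 and 1045 CPM in P plate. Its log2 fold change was -1.90 ± 0.37 (adjusted p 0.00443). Itga7 had 45.7, 45.6 and 57.0 CPM in M plate, against 108, 122 and 202 CPM in P plate (-1.55 ± 0.37, adjusted p 0.0122). Neither gene overlapped between the groups. Lama5 overlapped, with 319.9, 296 and 328 CPM in M plate, against 323, 734 and 637 CPM in P plate (-0.84 ± 0.25, adjusted p 0.0317). Lamb1 (-0.76 ± 0.19), Itgb5 (-0.42 ± 0.13) and Itgav (-0.37 ± 0.11) were the remaining falls.

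Of these 14 calls, those of Itga1, Itga5, Itga9 and Lamb2 held when each library was left out in turn. With the replicate block in the 6 M plate and P plate libraries, Itga1, Itga5 and Lamb2 were lost (adjusted p 0.0696, 0.0654 and 0.0869). Lamb2 was also lost in those 6 libraries without the block (0.05). Only the call of Itga9 held under every alternative run. Itga7 was lost without M plate replicate 1 (adjusted p 0.0518). Lama2 and Lama4 were lost without M plate replicate 1 (0.0553 and 0.0513) or P plate replicate 3 (0.0627 and 0.0619), and Lamb1 without M plate replicate 1 or 2 (0.0613 and 0.0652). Lamb3 was lost without M plate replicate 1 or 2 or P plate replicate 3 (0.0812, 0.0570 and 0.0726). Itga10, Itgav, Lama5 and Lamc1 were each lost in 5 of the 6 fits and Itgb5 in all 6, with adjusted p up to 0.138, 0.121, 0.0991, 0.101 and 0.138. Without M plate replicate 1, 2 or 3 the members called were 3 higher and 1 lower, 5 and 2, and 6 and 3, beside 9.99% and 4.46%, 10.7% and 4.84%, and 11.6% and 6.48% of all genes. Without P plate replicate 3 they were 3 and 3, beside 10.8% and 6.22%. Without the low-count filter, Itga10, Itgav, Itgb5 and Lamc1 were not called (0.0730, 0.110, 0.119 and 0.0596).

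Markers of several cell types moved with the medium. The sum of 10 endothelial markers was 1848 to 2237 CPM in M plate, against 62.8 to 75.8 CPM in P plate, with all 10 detected in both groups and 8 called higher. The 6 lymphatic markers summed to 3157 to 4172 CPM in M plate, against 68.1 to 94.3 CPM in P plate, and 5 were called higher. The 7 enteric glia and Schwann markers summed to 137 to 178 CPM in M plate, against 23.8 to 40.8 CPM in P plate, with 6 called higher. The 7 enteric neuron markers summed to 116 to 222 CPM in M plate, against 28.1 to 68.9 CPM in P plate, with 5 called higher and Chat at 0 in P plate. The 7 fibroblast markers summed to 14086 to 15905 CPM in M plate, against 8522 to 11776 CPM in P plate, with 4 called higher. Of 5 pericyte markers 3 were called higher (289 to 397 CPM in M plate, against 85.3 to 152 CPM in P plate), and of 3 markers of interstitial cells of Cajal 2 were (54.4 to 69.3 CPM in M plate, against 20.5 to 53.9 CPM in P plate). None of these lists had a marker called lower. Of 10 smooth muscle markers 2 were called higher and 3 lower, of 8 epithelial markers 1 and 1, of 3 tested lymphocyte markers 1 and 0, and none of the macrophage, mesothelial or platelet markers was called.

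Within M scaffold, Itga9 had 262 and 158 CPM in replicates 1 and 2, whose lymphatic sums were 1884 and 1361 CPM, and 86.2 CPM in replicate 3, whose sum was 291 CPM. P plate, at 30.7 to 59.2 CPM of Itga9, lay below strips, at 216, 340.1 and 237 CPM, with lymphatic sums of 42.9 to 54.6 CPM. The part of these cell types in the changes of the members with the medium was not tested.

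Among partners, 7 of 23 basement membrane genes were called higher and 4 lower in M plate than in P plate, 6 and 5 of 26 integrin ligands, 2 and 7 of 34 adapters, and 2 and 0 of 13 other laminin receptors. Their median log2 fold changes were 0.43, 0.03, -0.19 and 0.16. Over all genes, 14.3% were called higher and 10.6% lower.

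The remaining comparisons set each culture against the native muscle strips. They share the 3 strips, so their values are given side by side. In M scaffold 12 members were higher and 11 lower than in strips (35.3% and 32.4% of the tested members, beside 24.5% and 27.6% of all genes). In M plate 9 were higher and 8 lower (26.5% and 23.5%, beside 26.5% and 28.4%), which is at or under the background. In P plate 14 were higher and 13 lower (41.2% and 38.2%, beside 30.5% and 32.7%). These counts include Itgb6, which passed the low-count filter through strips alone, and Itgax, which passed through the cultures alone, so their differences follow in part from the filter. The median log2 fold changes over the members were -0.06, 0.05 and 0.25 in M scaffold, M plate and P plate, beside -0.02, -0.01 and -0.03 over all genes. Laminin genes gave medians of -0.67, -0.53 and -1.01, and integrin genes medians of 0.33, 0.16 and 0.83.

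**Figure D4:**
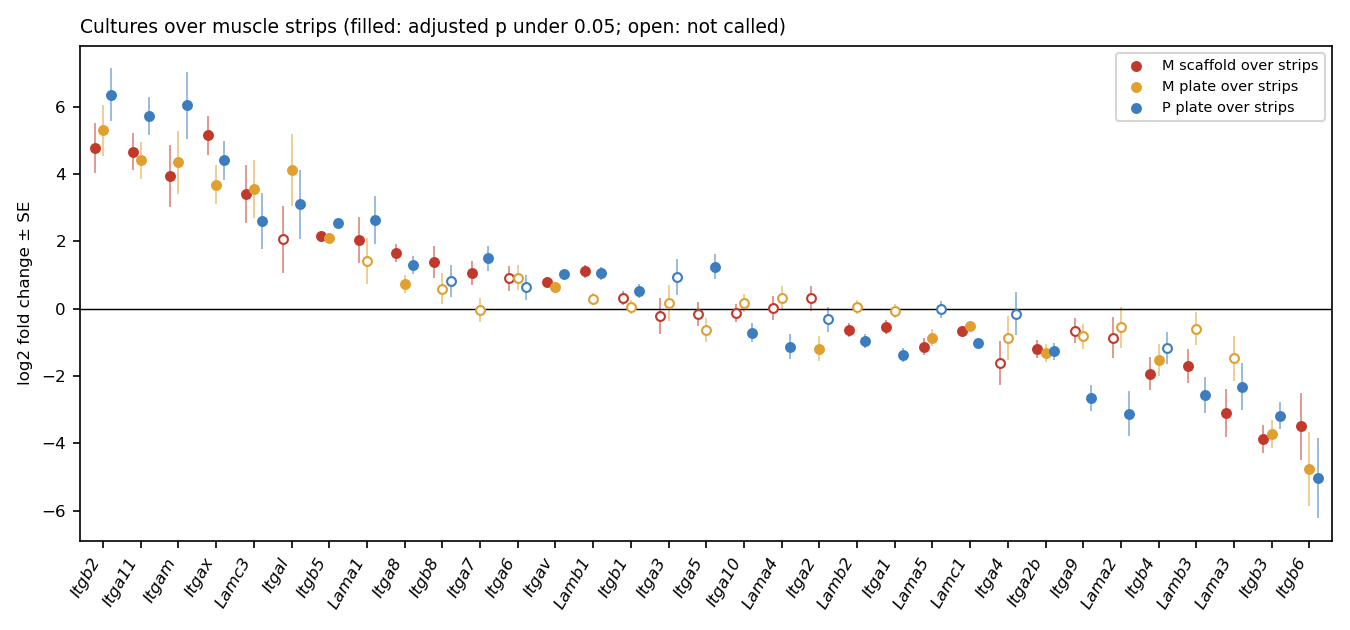
Log2 fold change ± SE over muscle strips of the tested genes shown in M scaffold, M plate and P plate, ordered by their mean, with filled points for an adjusted p under 0.05. Itgb2, Itga11, Itgax and Itgam lie at the high end and Itgb3, Lama3 and Itgb6, which has few counts, at the low end in the order of the means. Itgax passed the low-count filter through the cultures alone and Itgb6 through strips alone, so their places follow in part from the filter.

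The largest rises included chains of the leukocyte integrins. Itgb2, their common beta chain (ENSMUSG00000000290, chr10:77530252-77565708, plus strand), had 46.9, 40.1 and 74.1 CPM in M scaffold, 54.2, 94.0 and 84.8 in M plate and 339.9, 83.3 and 61.0 in P plate, against 3.29, 0.751 and 1.76 CPM in strips. Every culture library was above every strip. The log2 fold changes were 4.77 ± 0.74, 5.30 ± 0.76 and 6.36 ± 0.79 in M scaffold, M plate and P plate (adjusted p 0.000519, 0.000254 and 6.51e-05). Itgax had 9.0, 2.14 and 6.79 CPM in M scaffold, 2.03, 1.80 and 2.66 in M plate and 5.45, 2.64 and 2.61 in P plate, against 0.137, 0.167 and 0.186 CPM in strips. Its log2 fold changes were 5.15 ± 0.59, 3.69 ± 0.57 and 4.41 ± 0.58. Itgax passed the low-count filter through the cultures alone, where it is high, so its calls of higher are no independent result. Itgam, the alpha chain of the complement receptor of macrophages, had 10.8, 10.6 and 35.4 CPM in M scaffold, 13.3, 35.5 and 27.0 in M plate and 191, 31.3 and 23.9 in P plate, against 1.97, 0.917 and 0.858 CPM in strips (3.94 ± 0.91, 4.35 ± 0.93 and 6.05 ± 0.99). Counts of Itgam are uncertain, since 3450 of its 5024 exonic bases are shared with the annotated gene Gm49368 on the same strand.

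P plate replicate 1 was the highest library for Itgb2 and Itgam, and without it the log2 fold changes in P plate were 5.15 and 4.44 (both called). Without M scaffold replicate 3 the M scaffold value of Itgam was 3.12. Itgal, the lymphocyte and myeloid chain that pairs with Itgb2, was called higher in M plate (4.12 ± 1.07, and 2.76 without M plate replicate 2) and in P plate (3.10 ± 1.03), the P plate call being lost without P plate replicate 2 (adjusted p 0.0550), without strip 1, 2 or 3 (0.0602, 0.0645 and 0.0679), or in limma-voom (0.0769). The sum of 10 macrophage markers was also higher in each culture than in strips. All 10 were detected in each group, with sums of 2041 to 4396 CPM in M scaffold, 4410.4 to 5161 in M plate and 2490.1 to 22800 in P plate, against 169 to 241 CPM in strips, and 8, 10 and 10 of the 10 were called higher than in strips. The 8 lymphocyte markers summed to 14.2 to 17.7 CPM in M scaffold, 48.4 to 89.5 in M plate and 5.13 to 32.3 in P plate, against 2.82 to 4.79 CPM in strips. In M scaffold, M plate and P plate 7, 5 and 5 of them were detected. Cd8a was at 0 in M scaffold, Cd3g and Cd8a in M plate and Cd3e and Cd3g in P plate. The part of macrophages and lymphocytes in the integrin differences was not tested.

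**Figure D5:**
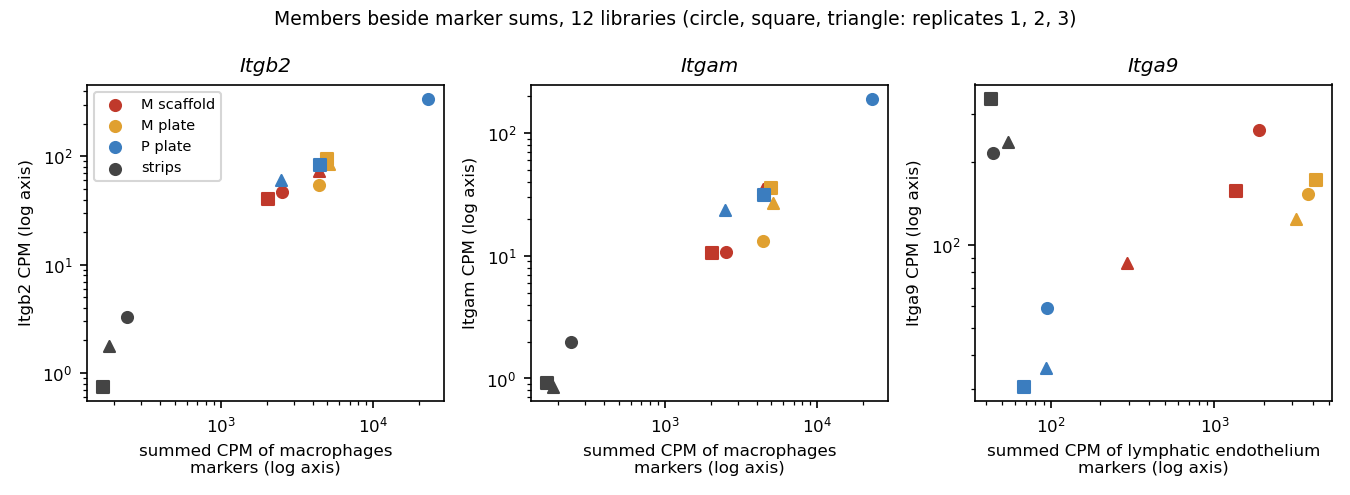
CPM of Itgb2 and Itgam against the summed CPM of 10 macrophage markers, and of Itga9 against that of 6 lymphatic endothelial markers, in 12 libraries on log axes. P plate replicate 1 sits at the high end of the macrophage axis (22800 CPM) with the highest Itgb2 and Itgam, and strips sit at the low end (169 to 241 CPM) with the lowest.

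Matrix-binding chains also differed from muscle. Itga11, a collagen receptor chain of fibroblasts (ENSMUSG00000032243, chr9:62677826-62783982, plus strand), had 24, 44 and 119 CPM in M scaffold, 47.6, 47.3 and 61.1 in M plate and 154, 89.5 and 146 in P plate, against 1.97, 2.46 and 2.88 CPM in strips. No culture library overlapped the strips, and the log2 fold changes were 4.67 ± 0.55, 4.41 ± 0.54 and 5.72 ± 0.57. Without M scaffold replicate 3 the M scaffold value was 3.80. Itgb5 (ENSMUSG00000022817, chr16:33829665-33949338, plus strand), chosen after its values were seen for its small spread, had 260.1, 282 and 340.2 CPM in M scaffold, 285, 261 and 311 in M plate and 394, 398 and 359 in P plate, against 57.9, 68.3 and 71.9 CPM in strips. Its log2 fold changes were 2.16 ± 0.14, 2.11 ± 0.14 and 2.54 ± 0.14, with the lowest adjusted p of the members in each comparison. Its partner Itgav rose by 0.78 ± 0.11, 0.65 ± 0.11 and 1.02 ± 0.11. The sum of 7 fibroblast markers was 16660.1 to 23818 CPM in M scaffold, 14086 to 15905 in M plate and 8522 to 11776 in P plate, against 4064 to 5071 CPM in strips. All 7 were detected in each group, 4 of 7 were called higher in each comparison and 2 lower in P plate. The part of fibroblasts in these rises was not tested.

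The RefSeq bases before the starts of these genes, which were high together in the cultures, are given in the same way (GRCm38.p6, plus strand, 5′ to 3′, GC boxes in capitals), at chr9:62677605-62677825 for Itga11 and chr16:33829415-33829664 for Itgb5.
Itga11: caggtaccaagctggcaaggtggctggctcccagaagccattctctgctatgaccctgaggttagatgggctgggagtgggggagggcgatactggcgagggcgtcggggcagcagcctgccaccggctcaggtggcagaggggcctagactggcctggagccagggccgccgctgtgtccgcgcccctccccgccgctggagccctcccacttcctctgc
Itgb5: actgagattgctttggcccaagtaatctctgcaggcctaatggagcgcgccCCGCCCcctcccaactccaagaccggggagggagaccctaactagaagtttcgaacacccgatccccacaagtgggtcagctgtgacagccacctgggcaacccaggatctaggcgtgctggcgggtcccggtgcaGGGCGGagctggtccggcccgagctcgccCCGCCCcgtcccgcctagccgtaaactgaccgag
The Itgb5 stretch held 3 GC boxes and 65.2% G or C, and the Itga11 stretch held none and 69.2% G or C.

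Among the RGD receptor chains, Itga8 was called higher in M scaffold (1.66 ± 0.27), M plate (0.74 ± 0.26) and P plate (1.29 ± 0.26), while Npnt, nephronectin, its matrix ligand, was called lower (-1.46 ± 0.41, -1.46 ± 0.41 and -2.12 ± 0.42). The M plate call of Itga8 was lost with upper quartile scaling (adjusted p 0.0825) and without M plate replicate 1 or 2 (0.0778 and 0.0962) or strip 1, 2 or 3 (0.0705, 0.105 and 0.0902). Fn1, fibronectin, the ligand of Itga5, was higher, with 4906 ± 1034 CPM in M scaffold, 6127 ± 622 in M plate and 10587 ± 6021 in P plate, against 428 ± 44 CPM in strips. The M plate call of Npnt was lost without M plate replicate 3 (adjusted p 0.0506). Npnt and Fn1 were chosen after their values were seen. Itga5 itself was called higher in P plate (1.25 ± 0.36, lost without P plate replicate 3 at adjusted p 0.0522), with -0.15 ± 0.36 in M scaffold and -0.65 ± 0.36 in M plate, which were not called. Of the 26 tested integrin ligands, 19, 20 and 16 were called higher than in strips in M scaffold, M plate and P plate, and 3, 3 and 8 lower, with medians of 1.82, 1.55 and 1.41. That list holds Pecam1, Cdh1 and Col1a1, which are also among the endothelial, epithelial and fibroblast markers. Over all genes, 24.5%, 26.5% and 30.5% were called higher and 27.6%, 28.4% and 32.7% lower, in the same order of cultures.

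Itga7 was called higher in M scaffold (1.05 ± 0.36) and in P plate (1.49 ± 0.37). The M scaffold call was lost without M scaffold replicate 3 (0.58, adjusted p 0.151), without strip 1 or 3 (0.110 each), and with upper quartile scaling (0.0553). Lama1, a laminin alpha chain known from embryos, rose in M scaffold (2.04 ± 0.69) and P plate (2.63 ± 0.71), and the M scaffold value was 1.25 and not called without replicate 3 (0.142). The P plate value was 1.83 without P plate replicate 1. The M scaffold call of Lama1 was also lost without strip 1, 2 or 3 (0.0965, 0.0660 and 0.0747) and in limma-voom (0.0848). Itgb8 was called higher in M scaffold (1.38 ± 0.47), a call lost without M scaffold replicate 2 or 3 (0.0906 and 0.0508) or strip 1 or 2 (0.0717 and 0.104). Itgb1 was called higher in P plate (0.52 ± 0.21, adjusted p 0.0488), and 0.27 without P plate replicate 1 (0.223). Its P plate call was lost under every other single-library omission except that of P plate replicate 2 (up to 0.133), and with RLE or upper quartile scaling (0.0630 and 0.148).

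Lamb1 was called higher than in strips in M scaffold (1.12 ± 0.19) and P plate (1.05 ± 0.19), with 0.29 ± 0.19 in M plate, which was not called. Lamc3, a gamma chain of few tissues, had 65.7, 145 and 119 CPM in M scaffold, 64.0, 156 and 145 in M plate and 5.26, 105 and 80.8 in P plate, against 9.75, 6.21 and 15 CPM in strips. It was called higher in all 3 comparisons (3.40 ± 0.86, 3.55 ± 0.87 and 2.61 ± 0.83), although P plate replicate 1 lay below every strip. The P plate call was lost in limma-voom (1.64, adjusted p 0.222), without P plate replicate 2 (0.0630) and without strip 1 or 2 (0.0593 and 0.0656). Lamc3 held 22.9 ± 8.4%, 22.4 ± 8.0% and 16.7 ± 13.5% of the gamma chain level per kb in M scaffold, M plate and P plate, and 1.68 ± 0.73% in strips.

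Among the falls, Itgb3 led by size among well-counted genes. Itgb3 (ENSMUSG00000020689, chr11:104608000-104670476, plus strand) had 18.5, 7.92 and 18.6 CPM in M scaffold, 20.6, 15 and 14.8 in M plate and 31.0, 12.3 and 29.8 in P plate, against 211, 249 and 205 CPM in strips. The culture libraries lay far below all strips, and the log2 fold changes were -3.88 ± 0.41, -3.72 ± 0.41 and -3.19 ± 0.40 (adjusted p 6.58e-05, 5.57e-05 and 6.67e-05). Itgb3 also pairs with Itga2b in platelets. Itga2b was called lower as well (-1.19 ± 0.26, -1.33 ± 0.26 and -1.27 ± 0.26). The summed level of 5 platelet markers was 6.96 to 14.9 CPM in M scaffold, 13.4 to 17.0 in M plate and 16.5 to 107 in P plate, against 9.59 to 17.3 CPM in strips. Gp6 was at 0 in M scaffold, and Gp9 and Gp6 were at 0 in P plate. The smooth muscle sum, given above, was also lower in the cultures, with 8, 10 and 8 of 10 markers called lower, and its part was not tested.

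Lama3 and Lamb3, chains known from epithelia, were called lower in M scaffold and P plate. Lama3 had 3.50, 3.82 and 1.40 CPM in M scaffold, 6.10, 6.12 and 14.2 in M plate and 8.68, 5.20 and 0.797 in P plate, against 19.3, 29.6 and 25.0 CPM in strips. All culture libraries were below all strips. It was called lower in M scaffold (-3.10 ± 0.72) and P plate (-2.33 ± 0.70), with -1.48 ± 0.68 (adjusted p 0.0862) in M plate. Without P plate replicate 1 the P plate value was -3.07. Lamb3 was called lower in M scaffold (-1.71 ± 0.51, lost without M scaffold replicate 2 at 0.0622 or strip 2 at 0.0582) and P plate (-2.57 ± 0.54, and -3.53 without P plate replicate 2). Lamc1, a gamma chain of many laminins, was called lower in M scaffold (-0.67 ± 0.15), M plate (-0.53 ± 0.15) and P plate (-1.01 ± 0.15).

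Itgb4, the hemidesmosome chain that pairs with Itga6, was called lower in M scaffold (-1.93 ± 0.48) and in M plate (-1.52 ± 0.48, lost without M plate replicate 2 or 3 at 0.0583 and 0.0576), with -1.17 ± 0.47 in P plate (adjusted p 0.0505). Itgb6, an epithelial activator of latent TGF-beta, rested on few reads: 5, 6 and 1 counts in M scaffold, 3, 0 and 2 in M plate and 0, 3 and 0 in P plate, against 17, 44 and 83 counts in strips. It passed the low-count filter through strips alone, the group where it is high, so its calls of lower are no independent result. Its fold is drawn in the figure of cultures over strips but is not printed here. A count of 0 allows up to 3 counts, or 0.0270 to 0.125 CPM across the libraries. The 8 epithelial markers summed to 103 to 164 CPM in M scaffold, 113 to 121 in M plate and 57.7 to 386 in P plate, against 387 to 596 CPM in strips. Cdx1 was at 0 in P plate and the others were detected in every group. In M scaffold, M plate and P plate alike, 6 of the 8 were called lower than in strips. The part of epithelial cells was not tested.

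The laminin chains of muscle and vessels, Lama2 and Lama4, were called lower than in strips in P plate. Lama2 had 14.7, 16.8 and 32.4 CPM in M scaffold, 32.7, 20.1 and 26.3 in M plate and 9.55, 0.922 and 2.77 in P plate, against 32.6, 41.4 and 42.3 CPM in strips. The difference was called in P plate (-3.13 ± 0.67, adjusted p 0.00207, and -4.43 without P plate replicate 1), with -0.86 ± 0.61 in M scaffold and -0.56 ± 0.61 in M plate. Lama4 was called lower in P plate (-1.13 ± 0.37, lost without P plate replicate 3 at adjusted p 0.0571, and -1.82 without P plate replicate 1). Itga9 was called lower in P plate (-2.66 ± 0.40), and Itga1 in M scaffold (-0.55 ± 0.21) and P plate (-1.37 ± 0.21). The M scaffold call of Itga1 was lost without M scaffold replicate 2 or 3 (0.107 and 0.156) or any strip (0.0530, 0.124 and 0.0905), and without the filter (0.0801). Lamb2 was called lower in M scaffold (-0.65 ± 0.21) and P plate (-0.97 ± 0.21), with 0.04 ± 0.21 in M plate. The M scaffold call of Lamb2 was lost without M scaffold replicate 2 or 3 (0.0690 and 0.0671) or strip 2 or 3 (0.0722 and 0.0523). Lama5 was called lower in M scaffold (-1.13 ± 0.25) and M plate (-0.87 ± 0.25), with -0.03 ± 0.25 in P plate. Itga2 was called lower in M plate (-1.19 ± 0.37, lost without M plate replicate 1 or 3 or strip 3, up to 0.0608). Itga10 was called lower in P plate (-0.71 ± 0.28), a call lost without P plate replicate 1 or 3 (0.108 and 0.0829), without strip 1 or 2 (0.169 and 0.0572), without the filter (0.0877) and in limma-voom (0.0540).

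Of the partner lists, 4, 6 and 6 of 23 basement membrane genes were called higher than in strips in M scaffold, M plate and P plate, and 7, 6 and 10 lower. Of the 34 adapters 12, 14 and 16 were higher and 7, 9 and 5 lower. Of the 13 other laminin receptors 4, 3 and 3 were higher and 3, 5 and 7 lower. Over all genes, 24.5%, 26.5% and 30.5% were called higher and 27.6%, 28.4% and 32.7% lower, in the same order of cultures. Of the 37 members, 9 share exonic bases with an annotated gene on the opposite strand (Itga4, Itga7, Itga8, Itgad, Itgav, Itgb4, Lama2, Lama3 and Lamc3) and 4 with one on the same strand (Itga1, Itga10, Itgad and Itgam), and with a strand setting not given in the sources used here, reads there cannot be told apart.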

How the data were processed

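RNA-seq of 12 mouse libraries was read from 1 deposited table of counts per Ensembl gene. The deposited counts are whole numbers made by the authors and not normalized. STAR 2.6.0 and the builds GRCm38 and mm10 are named per the submitters' processing notes. The counting program, its annotation and its strand setting, not given in the sources used here, can shift counts of overlapping genes. Each sample had 2 technical replicates per the study's text, joined into 1 column by a step not given in the sources used here. Whether replicates came from separate animals is not in the labels, and if they did not, p values measure technical spread. Replicates differed beyond sampling noise (chi-square per gene 40.7 to 446).

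Summary entries that name no gene entered neither library sizes nor tests: reads in no feature were 2.57% to 4.42% and ambiguous reads 1.83% to 2.24%. Symbols and GRCm38 coordinates came from GENCODE M21 for 52403 of 52550 genes. Counts were tested in R 4.3.3 with edgeR 4.0.16 (filterByExpr, 17700 genes, TMM scaling, quasi-likelihood F test on all 12 libraries by group, 8 residual degrees of freedom), and the call was a Benjamini-Hochberg adjusted p under 0.05 over all of them. Tests are two-sided. The fit was run on simulated data with 200 changed genes, the same spread for every gene and no replicate effect. These settings are simpler than the real libraries, so error rates in these data were not measured. Levels are TMM-scaled CPM, and between genes CPM per kb of joined exons. Floors of 3 counts (0.0270 to 0.125 CPM) cover counting error only.

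Per-library values were given, by rule, for members called on the scaffold and for up to 3 called members with the largest rise and the largest fall in each other comparison with at least 1 CPM in the higher group; the text says where others were chosen after their values were seen, and Lamb2, Itga1, Itga2, Itga7, Itga8, Itgax, Lama3 and Lamc3 were also added in this way. From each partner list up to 3 called genes of the commoner direction and 1 of the opposite one were named for the scaffold comparison, or the 2 with the lowest p where none was called. The members and lists were chosen with earlier results of these data known. Some members and markers are counted but not reported here by name. Replicate numbers were checked for pairing by the correlation of deviations from group means. For M scaffold and M plate it was 0.290, 0.196 and 0.304 for equal numbers and -0.228 to -0.0597 for unequal ones. The main fit had no replicate term and ignores this pairing, which entered only the fits with a replicate block. Alternatives were RLE and upper quartile scaling, no filter, a mean of at least 1 CPM, DESeq2 1.42.0, voom of limma 3.58.1, a replicate block, the 6 libraries compared alone, and each library left out.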

Additional observations from a re-analysis of the deposited data

How the results depend on the processing

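For M scaffold over M plate, integrin and laminin genes called higher numbered 1, against 2 without the filter, 5 in DESeq2, 2 in limma-voom, 3 in the 6 libraries alone and 0 to 2 on leaving out a library; those lower numbered 0, against 1 in DESeq2 and 1 in the 6 libraries alone (2.78% and 3.75% of all genes called higher and lower there). With the replicate block, higher and lower calls were 0 and 0 in 12 libraries and 3 and 3 in the 6 paired libraries (1.25% and 0.955%, and 4.81% and 5.69%, of all genes). For M plate over P plate, 8 higher and 6 lower became 3 and 3 in the 6 libraries alone (10.6% and 6.84% of all genes), 3 to 8 and 1 to 7 on leaving out a library, and 1 and 2 with the replicate block in 6 (5.77% and 2.19%), where same-numbered libraries correlated at no more than 0.0857. For M plate over strips, 9 higher and 8 lower became 14 and 14 in the 6 libraries alone and 14 and 13 with the block in 6, where 33.6% and 33.9%, and 32.4% and 32.4%, of all genes were called, against 26.5% and 28.4% in 12 libraries. Where samples were left out fewer residual degrees of freedom remained; otherwise the cause was not tested. Members reported here whose uncalled scaffold difference turned sign were Itga6 (0.000502 without the filter), Itga11 (-0.0377 in limma-voom, -0.0270 with the block in 6) and, on leaving out a library, Itga2b (-0.00826 to 0.26), Itga6 (-0.23 to 0.11), Itga9 (-0.29 to 0.49), Itga11 (-0.61 to 0.66), Itgb3 (-0.35 to 0.16), Itgb5 (-0.0729 to 0.14), Lama1 (-0.17 to 0.99) and Lamc3 (-0.44 to 0.13). No called member changed sign. Calls that held under every alternative run were 0 of 1 for the scaffold, 1 of 14 for the medium, and 17 of 23, 14 of 17 and 19 of 27 for M scaffold, M plate and P plate over strips. Upper quartile scaling moved the median of all genes to -0.16, -0.16 and -0.19 in those 3 comparisons. Depth limits the values of Itgb6, which had 12, 5 and 3 counts over M scaffold, M plate and P plate.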
